A study of Homo sapiens with 24 samples.

Results

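The 44 genes described here act in the G2 phase and in mitosis. They form a list of G2/M regulators, kinetochore, spindle and cytokinesis genes from a table of 23284 rows. They were chosen with earlier results of these data known, and all 44 had a row. They comprise 10 cyclins, CDK1 partners and entry kinases, 11 kinetochore and spindle checkpoint genes, 3 chromosomal passenger genes, 9 spindle motors and microtubule-associated proteins, and 6 genes of the central spindle and cytokinesis. The other members are 3 regulators of the anaphase-promoting complex with securin, and 2 genes of chromosome structure. After SFPQ knockdown without TGF-beta, 37 of the 44 members were called lower and none higher, against 15.0% and 6.69% of all genes tested. TGF-beta changed none of them past the threshold.

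Polyadenylated RNA was sequenced in 24 libraries of the human liver cancer lines HepG2, Hep3b, HLE, Huh1, Huh7 and SK-HEP1. Each of the 6 lines gave 1 library in each of 4 groups: SFPQ knocked down by siRNA and treated with TGF-beta (2 ng/ml for 24 h), SFPQ knocked down without TGF-beta, control siRNA with the same TGF-beta treatment, and control siRNA without TGF-beta. These are called siSFPQ with TGF-beta, siSFPQ, siCTL with TGF-beta and siCTL; all cells grew in DMEM with 10% serum. SFPQ is a nuclear RNA-binding protein of the paraspeckle, and the series title asks of its condensates whether they hold back SMAD4 and with it the growth-restraining arm of TGF-beta signalling. The labels name no second siRNA, no rescue and no repeat culture within a line, so effects of losing SFPQ and off-target effects of the siRNA cannot be told apart, and the p-values measure the spread between lines.

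Cells enter mitosis when CDK1 bound to cyclin B is switched on by CDC25 phosphatases and Polo-like and Aurora kinases. Kinetochores then tie chromosomes to spindle microtubules, and the spindle checkpoint holds back the anaphase-promoting complex until every chromosome is attached. Most of these genes are transcribed together in G2 under the MuvB complex with B-MYB and FOXM1, through CHR elements and CCAAT boxes in their promoters, and are silent in resting cells. TGF-beta is known as a cytostatic factor for many epithelial cells, hepatocytes among them. In whole-culture RNA, fewer cells in G2 or mitosis and less RNA per such cell cannot be told apart.

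The promoters of 4 members with textbook cell cycle control are shown to make the shared elements visible. Each runs from 250 bases before to 50 bases after the start site, 5′ to 3′ on the gene's own strand (plus for all 4), from RefSeq on GRCh38.p14. Capitals mark a CHR, searched as TTTGAA or TTCGAA on both strands, and a CCAAT box, searched as CCAAT on both strands; the elements of one kind and the other do not overlap in these windows. CCNB1 lies at chr5:69166900-69167199, CCNB2 at chr15:59104896-59105195, PLK1 at chr16:23678639-23678938 and CDC20 at chr1:43358731-43359030.
CCNB1: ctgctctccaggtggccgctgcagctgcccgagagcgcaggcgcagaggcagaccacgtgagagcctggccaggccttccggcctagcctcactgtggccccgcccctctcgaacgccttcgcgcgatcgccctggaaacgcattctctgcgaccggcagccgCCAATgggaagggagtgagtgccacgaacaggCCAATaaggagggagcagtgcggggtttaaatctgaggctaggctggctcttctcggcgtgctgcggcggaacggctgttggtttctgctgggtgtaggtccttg
CCNB2: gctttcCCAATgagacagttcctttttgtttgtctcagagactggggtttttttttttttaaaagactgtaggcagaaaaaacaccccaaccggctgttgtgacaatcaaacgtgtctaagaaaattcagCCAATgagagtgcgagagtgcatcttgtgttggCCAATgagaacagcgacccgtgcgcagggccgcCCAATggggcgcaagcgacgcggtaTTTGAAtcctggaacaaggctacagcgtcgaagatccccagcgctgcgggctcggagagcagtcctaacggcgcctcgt
PLK1: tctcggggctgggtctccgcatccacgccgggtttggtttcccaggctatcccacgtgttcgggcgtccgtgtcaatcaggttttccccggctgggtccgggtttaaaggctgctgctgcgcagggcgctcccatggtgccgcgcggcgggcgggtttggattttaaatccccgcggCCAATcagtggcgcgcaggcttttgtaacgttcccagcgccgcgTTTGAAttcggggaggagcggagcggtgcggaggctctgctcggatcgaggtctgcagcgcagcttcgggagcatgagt
CDC20: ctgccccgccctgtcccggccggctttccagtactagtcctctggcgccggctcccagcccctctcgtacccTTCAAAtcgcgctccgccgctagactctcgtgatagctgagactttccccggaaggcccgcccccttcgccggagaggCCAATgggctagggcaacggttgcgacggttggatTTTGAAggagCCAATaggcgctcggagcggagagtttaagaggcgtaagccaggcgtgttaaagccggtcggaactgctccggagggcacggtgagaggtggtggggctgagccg
CCNB2 and PLK1 each held TTTGAA with its first base at position -29, counted back from the start site, and CDC20 held it at -65 and, on the other strand, at -178. CCNB1 had no match to these letters in its window but held 2 CCAAT boxes at -87 and -55, close to the -87 and -54 of CCNB2. Promoters of 36 of the 44 members were matched by symbol. A CHR was found in 26 of these 36 (72.2%), against 16.6% of all 27305 promoters and 10.7% of the 8563 tested genes with a promoter. Both a CHR and a CCAAT box were found in 22 of the 36 (61.1%), against 6.58% of all promoters. CDC25B, CDC25C, CENPE, KIF2C and CKAP2 held neither. A match of letters is a description and not a measured binding site. The members FOXM1, AURKA, BUB3, TTK, BIRC5, TPX2, RACGAP1 and UBE2C had no entry matched.

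The values are FPKM, fragment counts scaled to transcript length and library size, as the authors deposited them. Changes are differences of log2(FPKM + 1), fitted with limma with the cell line as a block, and a gene was called at a Benjamini-Hochberg adjusted p under 0.05 over all genes at 1 FPKM or more in at least 6 of the 12 libraries compared. All 44 members passed this filter in every comparison. Between 10872 and 12584 genes reached 1 FPKM in a library. Relative depth was estimated from the most common ratio of low values between pairs of libraries. It ran from 0.352 to 1.74 times the median library, lowest in the Huh7 siSFPQ library with TGF-beta. Hepatocyte marker RNA was low in 3 of the lines. ALB stood at 0.951 FPKM in the siCTL library labelled Hep3b, 0.727 in HLE and 0.720 in SK-HEP1, against 70.5 in Huh7, 701 in Huh1 and 887 in HepG2. AFP, another marker, stood at 12.7 FPKM in the siCTL library labelled Hep3b, near the 23.3 of Huh1, against 0.672 in HLE, 0.0894 in SK-HEP1, 187 in HepG2 and 8400.3 in Huh7. Of the 9 hepatocyte markers, 3 in Hep3b, 4 in HLE and 5 in SK-HEP1 reached 1 FPKM in all 4 libraries. Hep3B cells are known to secrete albumin, so the ALB level goes against the label Hep3b. The other markers were low in that library too, with APOA1 at 2.35 FPKM (4.56 in Huh1), SERPINA1 at 2.08 and TF at 1.45. FGB stood at 0.641 FPKM there, HNF4A at 0.446, APOB at 0.347 and TTR at 0.087. SK-HEP1, which is regarded as an endothelial line, had a summed level of 0.0959 to 0.670 FPKM over the 5 endothelial markers. Results are therefore also given without the libraries labelled Hep3b.

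SFPQ itself had 23.5 to 51.4 FPKM in siSFPQ cells (median 38.5), against 90.4 to 247 FPKM in siCTL cells (median 176). It had 26.5 to 54.6 FPKM in siSFPQ cells with TGF-beta (median 37.7), against 84.7 to 248 FPKM in siCTL cells with TGF-beta (median 168). The groups did not overlap in either comparison, and SFPQ was lower in 6 of 6 lines. Its fitted change was -2.10 in untreated cells (adjusted p = 0.00287, SE 0.26), and in TGF-beta-treated cells it was -1.97 (adjusted p = 0.00241, SE 0.25). The share of SFPQ left differed between lines, from 9.49% in HLE and 13.1% in SK-HEP1 to 40.4% in Huh1 and 45.2% in HepG2, as a share of the siCTL FPKM without TGF-beta.

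The levels of the members set the scale of what follows. In siSFPQ cells CKS2 was the highest member with 104 ± 53.0 FPKM (SD, n = 6), ahead of PTTG1 with 101 ± 63.8, and CENPE was the lowest with 3.22 ± 1.75 FPKM. In siCTL cells CKS2 was again highest with 170 ± 51.3 FPKM, beside UBE2C with 168 ± 110 FPKM, and CENPE lowest with 6.24 ± 2.62. Most neighbours in this order differed by less than their spread over lines. At the low end some gaps exceeded the SD of a neighbour, such as ASPM (14.3 ± 6.19 FPKM) above CDC25C (8.95 ± 4.75 FPKM) in siCTL cells. The lines differed in their overall level. The median over the 44 members in siSFPQ cells was 43.6 FPKM in Hep3b, 34.9 in SK-HEP1, 20.7 in Huh7, 15.6 in HLE, 14.6 in HepG2 and 9.94 in Huh1. In siCTL cells the order was another one, with 72.2 FPKM in SK-HEP1, 51.2 in HLE, 39.0 in Hep3b, 38.4 in Huh7, 18.5 in HepG2 and 16.8 in Huh1. HLE stood above Hep3b and Huh7 in siCTL cells and below both in siSFPQ cells.

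Without TGF-beta, nearly the whole mitotic list was lower in siSFPQ cells. Of the 44 members, 37 were called lower and 0 higher, while 15.0% of the 12011 genes tested were called lower and 6.69% higher. The median change of the members was -0.72, which is 0.607-fold, against -0.07 for all genes tested. The changes ran from -1.46 for TOP2A to 0.13 for CDC25B, and 43 of 44 were below 0, against 59.4% of all genes tested. Lower values in 6 of 6 lines were found for 14 members, and for 17.5% of all genes tested. No member's siSFPQ and siCTL libraries separated without overlap, which 0.649% of all genes did. Without the libraries labelled Hep3b, 43 of 44 members were called lower (12.1% of all genes tested), with a median of -0.90. The count of calls rested on the other lines, and the share of all genes called lower fell too. It was 8 without SK-HEP1 (8.42% of all genes), 12 without Huh7 (9.75%) and 20 without HLE (8.61%). Without HLE and SK-HEP1 together it was 6 (5.69%), though the median stayed at -0.44 or below. With no filter on low values it was also 6, where 3.96% of 19834 genes were called lower. In these settings, in the order given, 42, 43, 44, 32 and 43 members had an unadjusted p under 0.05 by limma. That cut-off was a loose one. In the main fit 43 of 44 members passed it, but so did 4485 of all 12011 genes tested. The number over all genes is not given for the other settings.

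**Figure D1:**
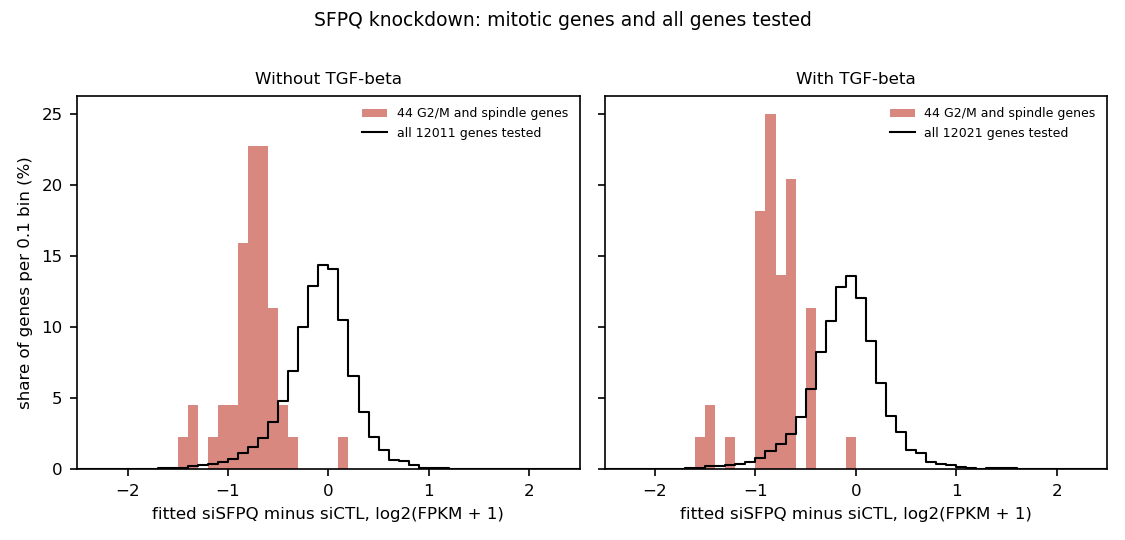
Distribution of the fitted siSFPQ minus siCTL difference of log2(FPKM + 1) (horizontal axis), as a share of genes in percent per bin (vertical axis), for the 44 members (red bars) and all genes tested (black line), without and with TGF-beta. The members lie around -0.72 and -0.80, and all genes around -0.07 and -0.09; the 1 member near 0 in both panels is CDC25B.

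Among the cyclins and entry kinases, 9 of 10 fell (median -0.70). CKS2, a small subunit of the CDK1 complex, had 208 FPKM in Hep3b, 106 in Huh1, 89.7 in Huh7, 61.7 in HepG2, 78.5 in HLE and 80.4 in SK-HEP1 in siSFPQ cells, against 208, 148, 149, 86.4, 203 and 222 FPKM in siCTL cells of the same lines. It was equal in the 2 Hep3b libraries and lower after knockdown in the others, with the deepest drops in SK-HEP1 and HLE, and the ranges overlapped. The fitted change was -0.75 (SE 0.18, adjusted p = 0.0189). CCNA2, cyclin A2, changed by -0.88 and CDK1, the mitotic kinase, by -0.82. FOXM1, the transcription factor of many G2/M genes, changed by -0.74, CDC25C by -0.71, AURKA by -0.69, PLK1 by -0.69, CCNB1 by -0.68 and CCNB2 by -0.64. AURKA and PLK1 are kinases of centrosomes and mitotic entry, and CCNB1 and CCNB2 encode the B-type cyclins.

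CDC25B, a phosphatase that starts CDK1 activation at the centrosome, stood apart from the rest of its group. It had 80.5, 109.7, 45.3, 32.0, 26.7 and 150.4 FPKM in siSFPQ cells in the order of lines given for CKS2, against 50.7, 80.5, 43.2, 32.6, 42.6 and 120.5 FPKM in siCTL cells. It was higher after knockdown in 4 lines, nearly level in HepG2 and lower in HLE, and the groups overlapped. The fitted change was 0.13 (SE 0.15, adjusted p = 0.547).

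Of the 11 kinetochore and checkpoint genes, 8 fell (median -0.78). NDC80, whose complex grips the microtubule end, had 15.3, 3.47, 10.1, 8.95, 4.05 and 12.7 FPKM in siSFPQ cells in that order of lines, which all further lists of 6 values follow, against 17.8, 6.99, 23.9, 14.9, 15.7 and 40.8 FPKM in siCTL cells. It was lower in 6 of 6 lines, with overlap between the groups. The change was -1.04 (SE 0.19, adjusted p = 0.00772), close to 0.488-fold. HJURP, the chaperone that loads the centromeric histone, changed by -1.13, and CENPA, that histone, by -0.83. CENPF, an outer kinetochore protein, changed by -0.95, and NUF2, the partner of NDC80, by -0.89. TTK, the kinase that starts checkpoint signalling, changed by -0.78, BUB1, another checkpoint kinase, by -0.63, and BUB3, which recruits BUB1, by -0.42. The checkpoint protein BUB1B had 31.8, 14.9, 21.0, 11.8, 7.99 and 22.5 FPKM in siSFPQ cells, against 28.1, 21.7, 27.9, 15.2, 22.4 and 35.2 FPKM in siCTL cells. It was lower in every line but Hep3b, and the groups overlapped. Its difference of -0.51 (SE 0.16) missed the threshold with an adjusted p of 0.0511. MAD2L1, the checkpoint effector, at -0.59 (adjusted p = 0.0509) and CENPE, a kinetochore kinesin, at -0.78 (adjusted p = 0.0511) lay just beyond it too.

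In the chromosomal passenger complex, which corrects faulty attachments, 2 of 3 genes fell. BIRC5, the survivin subunit, had 39.7, 8.42, 17.7, 19.2, 17.0 and 41.3 FPKM in siSFPQ cells, against 39.9, 14.3, 37.5, 30.7, 59.7 and 79.1 FPKM in siCTL cells. It was level in Hep3b and lower in the other 5 lines, with overlapping ranges. The change was -0.85 (SE 0.18, adjusted p = 0.0136). AURKB, the kinase subunit, changed by -0.63. INCENP, the scaffold, had 24.2, 11.5, 18.1, 9.86, 9.06 and 21.7 FPKM in siSFPQ cells, against 20.7, 14.8, 26.8, 12.4, 25.9 and 32.1 FPKM in siCTL cells. The difference of -0.49 (SE 0.17) did not pass (adjusted p = 0.0687), and the values overlapped.

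The spindle genes held the steepest falls of the list beside TOP2A, and 8 of 9 were called lower (median -0.71). TPX2, which nucleates spindle microtubules and activates AURKA, had 49.5, 22.3, 36.9, 33.4, 16.2 and 33.3 FPKM in siSFPQ cells, against 68.0, 41.3, 98.7, 63.0, 92.2 and 166 FPKM in siCTL cells. Every line fell, and only the Huh1 and Hep3b values made the groups overlap at their edges. The change was -1.39 (SE 0.25, adjusted p = 0.00751), or 0.382-fold. HMMR, a spindle-assembly partner of TPX2, changed by the same -1.39 (SE 0.29, adjusted p = 0.0121). KIF11, the motor that pushes the poles apart, changed by -0.85 and NUSAP1, a microtubule bundler, by -0.74. KIF2C, a microtubule depolymerase, changed by -0.71, the chromokinesin KIF4A by -0.69, the spindle protein DLGAP5 by -0.61 and CKAP2 by -0.50. ASPM, a spindle pole protein, had 24.0, 4.47, 12.8, 5.74, 3.46 and 6.75 FPKM in siSFPQ cells, against 21.5, 6.39, 16.5, 6.94, 16.8 and 17.7 FPKM in siCTL cells. It was slightly higher in Hep3b and lower elsewhere, with overlapping groups, and its -0.69 (SE 0.24) had an adjusted p of 0.0689.

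All 6 genes of the central spindle and cytokinesis were called lower (median -0.72). KIF20A, a motor of the central spindle, had 53.0, 5.77, 14.0, 11.1, 13.9 and 49.3 FPKM in siSFPQ cells, against 50.02, 11.9, 29.4, 17.0, 45.5 and 97.7 FPKM in siCTL cells. It was a little higher in Hep3b, lower in the other 5 lines, and the ranges overlapped. The change was -0.84 (SE 0.18, adjusted p = 0.0136). ANLN, which links actin to the cleavage furrow, changed by -1.005, RACGAP1 of the centralspindlin complex by -0.73 and the microtubule crosslinker PRC1 by -0.71. KIF23, the centralspindlin motor, had 38.1, 10.6, 18.2, 9.49, 18.6 and 45.2 FPKM in siSFPQ cells, against 29.8, 16.6, 32.6, 13.5, 55.4 and 68.3 FPKM in siCTL cells. It was above its siCTL value in Hep3b alone, and the groups overlapped; the change was -0.61 (SE 0.19, adjusted p = 0.0463). ECT2, the exchange factor that activates RhoA, changed least of this group with -0.38.

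At the anaphase switch, 2 of 3 genes fell. PTTG1, securin, the inhibitor of separase, had 170.0, 31.6, 88.5, 39.2, 96.1 and 183 FPKM in siSFPQ cells, against 154, 43.5, 158, 53.0, 167 and 325 FPKM in siCTL cells. It was lower in 5 lines and higher in Hep3b, with overlap, and changed by -0.53 (SE 0.13, adjusted p = 0.0202). UBE2C, the ubiquitin-conjugating enzyme of the anaphase-promoting complex, changed by -0.75. CDC20, its activator, had 127, 31.3, 100.3, 39.6, 87.1 and 139 FPKM in siSFPQ cells, against 95.7, 52.0, 172, 52.8, 201 and 187 FPKM in siCTL cells. Again Hep3b alone was higher and the groups overlapped; -0.52 (SE 0.17) had an adjusted p of 0.0541. PTTG1 has near-identical copies, but PTTG2 and PTTG3P did not exceed 0.400 FPKM in any library, and the KIF4A copy KIF4B did not exceed 0.232 FPKM.

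TOP2A, the topoisomerase that untangles sister chromatids, fell most of all members. It had 59.8, 9.56, 36.5, 37.7, 19.0 and 40.0 FPKM in siSFPQ cells, against 80.0, 23.4, 102, 82.0, 135 and 141 FPKM in siCTL cells. Each line fell, HLE most, and the Huh1 siCTL value lay within the siSFPQ range. The change was -1.46 (SE 0.24, adjusted p = 0.0059), or 0.364-fold. MKI67, the Ki-67 protein that coats mitotic chromosomes and marks cycling cells, had 51.0, 7.84, 20.1, 14.3, 11.5 and 53.0 FPKM in siSFPQ cells, against 48.6, 15.3, 37.8, 23.5, 62.5 and 108 FPKM in siCTL cells. Only Hep3b was higher, the groups overlapped, and the change was -0.96 (SE 0.24, adjusted p = 0.0221).

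**Figure D2:**
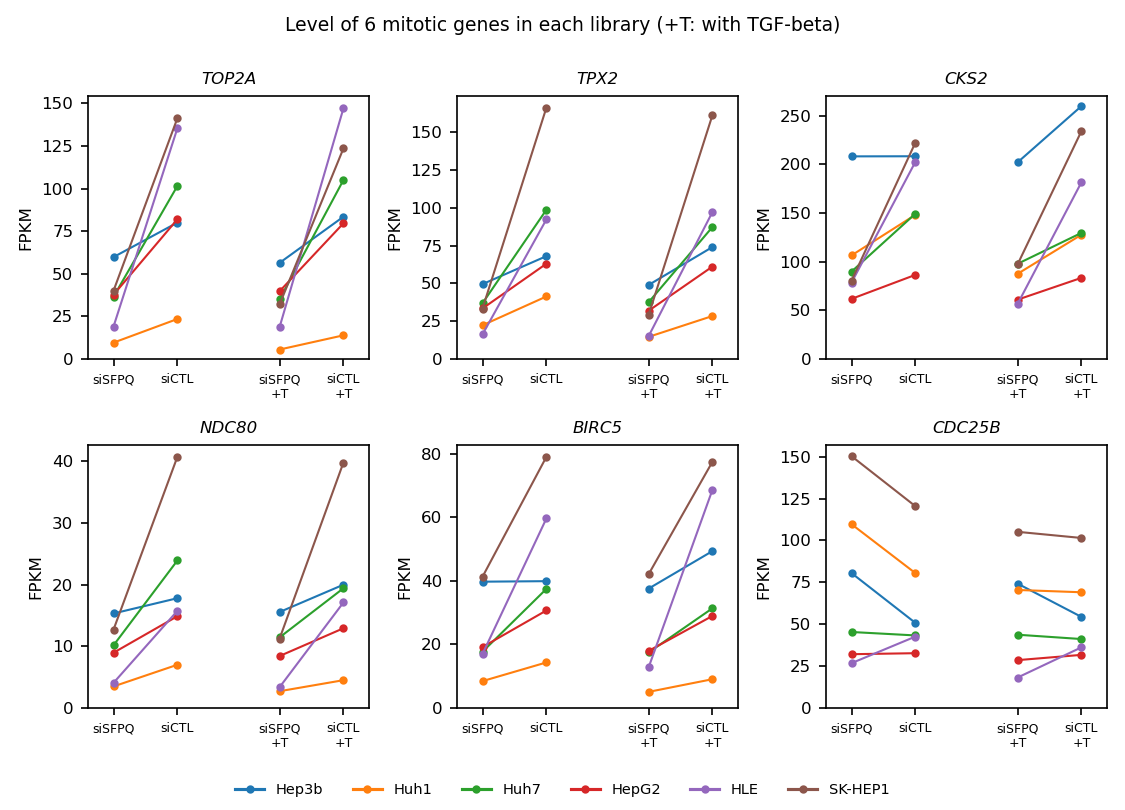
Level in FPKM (vertical axis, from 0) of 6 members in each library, with siSFPQ left of siCTL, first without and then with TGF-beta (+T); each line joins the 2 libraries of 1 cell line. TOP2A, TPX2 and NDC80 slope up to siCTL in every line, CKS2 and BIRC5 are flat in Hep3b without TGF-beta, and CDC25B slopes down to siCTL in most lines.

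In TGF-beta-treated cells the knockdown gave a fall of like size in other libraries. Here 38 of 44 members were called lower and 0 higher, against 21.8% and 8.47% of the 12021 genes tested. The median was -0.80, or 0.573-fold, beside -0.09 for all genes tested. All 44 values were below 0, against 62.4% of all genes tested. Values were lower in 6 of 6 lines for 24 members and for 23.4% of all genes tested. Again 0 members had groups without overlap, against 0.774% of all genes. Both knockdown comparisons called 34 members, 3 were called only without TGF-beta and 4 only with it; no library is shared between the 2 comparisons, though the lines are. Across the 44 members the 2 sets of changes had a Spearman rho of 0.937, given as a description, and the largest difference between them was 0.22, for CDC25B. Without the libraries labelled Hep3b, 43 were called lower (18.7% of all genes tested), with a median of -0.96. The count was 16 without SK-HEP1 (14.8% of all genes) and 25 without Huh7 (17.7%). It was 21 without HLE and SK-HEP1 together (13.7%) and 18 with no filter on low values (8.85%).

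By role, the calls with TGF-beta were 9 of 10 entry genes, 10 of 11 kinetochore and checkpoint genes, 2 of 3 passenger genes, 7 of 9 spindle genes, 5 of 6 cytokinesis genes, all 3 anaphase regulators and both genes of chromosome structure. TOP2A had 56.4, 5.51, 35.02, 39.7, 18.7 and 32.0 FPKM in siSFPQ cells with TGF-beta in the same order of lines, against 83.5, 13.8, 105, 79.6, 147 and 124 FPKM in siCTL cells with TGF-beta. All 6 lines fell, the groups overlapped through the low Huh1 values, and the change was -1.52 (SE 0.26, adjusted p = 0.00512). HMMR followed with -1.47, TPX2 with -1.44 and HJURP with -1.25. PTTG1, at -0.68 (SE 0.12, adjusted p = 0.00621), was lower in 6 of 6 lines. The members not called were CDC25B (-0.08, adjusted p = 0.704), BUB1B (-0.49), INCENP (-0.47), KIF2C (-0.69), CKAP2 (-0.49) and ECT2 (-0.45).

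The lines differed in how far the programme fell. In HLE 44 of 44 members were lower in siSFPQ than in siCTL cells without TGF-beta, with a median of -1.64, and 40 of them were below -1, against 7.60% of all genes tested. SK-HEP1 had a median of -0.96, with 43 members lower and 19 below -1 (8.86% of all genes). Huh7 had a median of -0.79 with 43 lower and 7 below -1 (2.37%), Huh1 of -0.65 with 43 lower and 1 below -1 (0.325%), and HepG2 of -0.48 with 44 lower and 2 below -1 (1.74%). In the libraries labelled Hep3b the median was 0.08, only 14 members were lower, and none was below -1 (1.72% of all genes). Of all genes tested, 55.0% were lower in HLE, 61.9% in SK-HEP1, 58.0% in Huh7, 55.6% in Huh1, 54.9% in HepG2 and 54.1% in Hep3b. SFPQ was left at 24.2% in Hep3b, 26.0% in Huh7, 40.4% in Huh1 and 45.2% in HepG2. Whether the SFPQ left plays a part in how far the members fell was not tested. TOP2A, TPX2 and HMMR were the lowest values in Hep3b too, at -0.41, -0.45 and -0.45. Each line has 1 library a group, so these values have no replicate check within a line.

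With TGF-beta the medians were -1.89 in HLE, -1.03 in SK-HEP1, -0.69 in Huh1, -0.68 in Huh7, -0.39 in HepG2 and -0.06 in Hep3b. In Hep3b 25 members were then lower and 19 higher, where 57.2% of all genes tested were lower. HLE and SK-HEP1, with the least SFPQ left, and Hep3b all had little hepatocyte marker RNA, with summed levels of 25.3 to 110, 18.2 to 22.2 and 12.5 to 23.4 FPKM over 9 markers. TTR was at 0 in every library of HLE and SK-HEP1. The part of this in the results was not tested. The order of the members' changes was loosely shared between lines, with Spearman rho over the 44 genes from 0.22 to 0.67 (median 0.37) for the 15 pairs of lines without TGF-beta. HLE and SK-HEP1 were the most alike there. With TGF-beta rho ran from -0.01 to 0.73 (median 0.46), highest between Huh7 and HLE, and HLE and SK-HEP1 had 0.50.

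**Figure D3:**
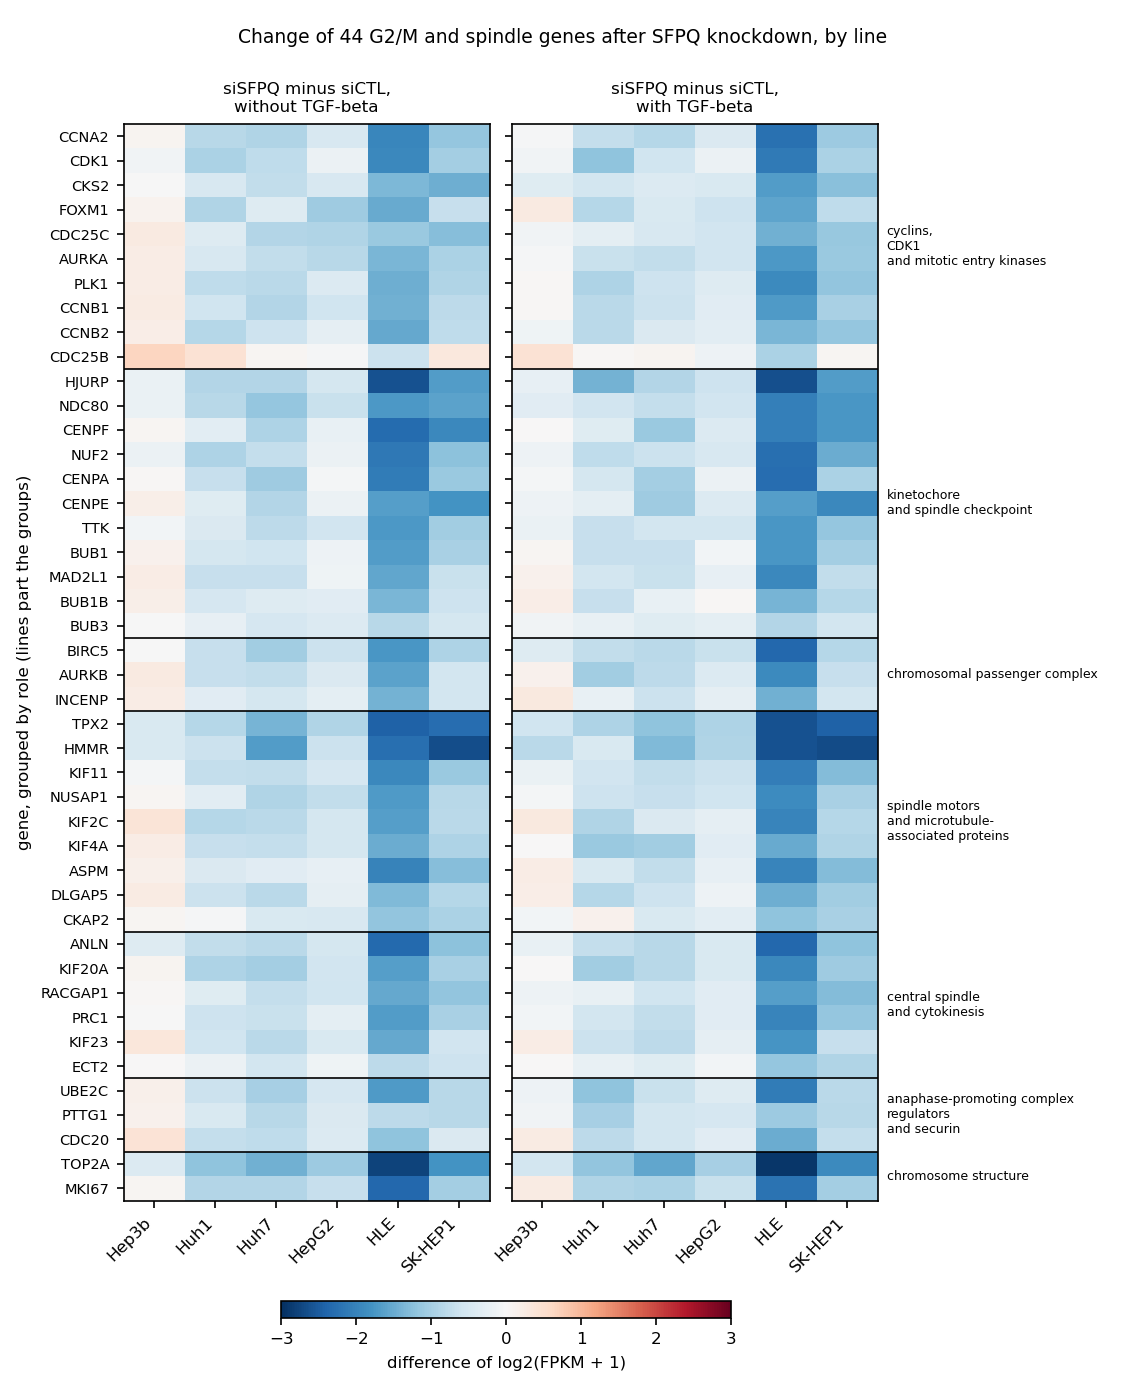
Difference of log2(FPKM + 1), siSFPQ minus siCTL, for each of the 44 members (down, grouped by role) in each cell line (across), without and with TGF-beta; blue is lower and red higher after knockdown. HLE is the darkest column for most genes, the Hep3b column is near white, pale red or pale blue, and TOP2A, TPX2 and HMMR are blue in all 6 lines of both panels.

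No member passed the threshold under TGF-beta. In siSFPQ cells the median over members was -0.16 for TGF-beta-treated against untreated cells, beside -0.06 for all genes tested. None of the 44 members was called by limma, against 2.26% of 11884 genes called higher and 2.90% called lower. An unadjusted p under 0.05 was found for 5 of the 44 members and for 3353 of the 11884 genes. Without Huh1 the members' median was -0.05, level with the -0.05 of all genes. The balance of calls over all genes turned with the scaling: 268 were called higher and 345 lower as reported, but 303 and 109 after scaling to a common median ratio, and 13 and 2 with no filter on low values. The nearest was CDC25B, which had 74.2, 70.4, 43.7, 28.5, 18.1 and 105 FPKM in siSFPQ cells with TGF-beta, against 80.5, 109.7, 45.3, 32.0, 26.7 and 150.4 FPKM in siSFPQ cells without it. It was lower in 6 of 6 lines, most in Huh1 and HLE, with overlapping ranges, and its -0.34 (SE 0.09) had an adjusted p of 0.0642. MAD2L1 at -0.30 had an adjusted p of 0.0709.

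In siCTL cells the median was -0.10, against -0.03 for all genes tested. Of the members 40 of 44 were below 0, and of all genes tested 60.1%. Without Huh1 the members' median was -0.01, against -0.02 for all genes, with 29 of 44 below 0. The share of all genes below 0 is not given for that setting. With all lines, again 0 members were called by limma, where 0.0658% of 12164 genes were called higher and 0.0329% lower. An unadjusted p under 0.05 was found for 0 members and for 1909 of the 12164 genes. CDC25B had the smallest p here as well, at -0.12 (SE 0.06, adjusted p = 0.343), with 54.3, 69.0, 41.1, 31.6, 36.1 and 101 FPKM in TGF-beta-treated siCTL cells against 50.7, 80.5, 43.2, 32.6, 42.6 and 120.5 FPKM in untreated ones. Only Hep3b was higher, and the groups overlapped. The test of whether the knockdown changed the TGF-beta response found 0 members, against 0.222% of 13494 genes higher and 0.0296% lower. By the same limma fit 1688 of the 13494 genes had an unadjusted p under 0.05, among them 2 members. These were CDC25B at -0.22 (SE 0.06, adjusted p = 0.249) and AURKB at -0.16 (adjusted p = 0.353).

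Huh1 had the lowest values of the 6 lines under TGF-beta. In siSFPQ cells its members had a median of -0.62, while the other 5 lines had medians of -0.16 to 0.03. There 43 of 44 members were lower in Huh1, against 62.2% of all genes tested. In siCTL cells its median was -0.51 and all 44 members were lower, against 58.2% of all genes tested. Hep3b was on the other side in siCTL cells, with a median of 0.16 and 40 members higher. In Hep3b 47.8% of all genes tested were lower there. The median level in Huh1 was 6.005 FPKM in siSFPQ cells with TGF-beta and 9.94 FPKM in siSFPQ cells, and 11.1 FPKM in siCTL cells with TGF-beta and 16.8 FPKM in siCTL cells. Huh1 has 1 library a group, so these values have no replicate check.

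**Figure D4:**
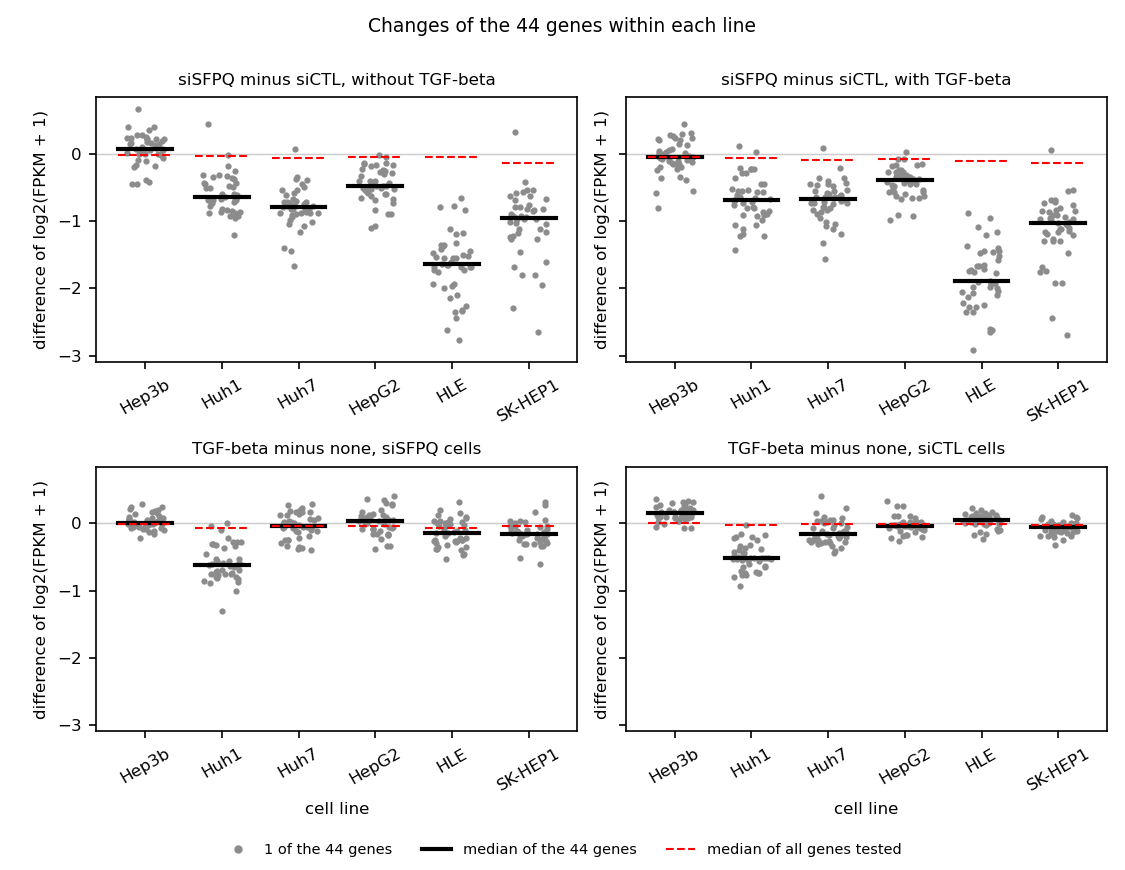
Differences of log2(FPKM + 1) (vertical axis) of the 44 members (grey points, spread sideways for clarity) within each cell line, with the members' median (black) and the median of all genes tested (red, dashed), for both knockdown and both TGF-beta comparisons. HLE lies lowest under knockdown and Huh1 lowest under TGF-beta, while the medians of all genes tested stay near 0.

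Other genes of mitosis were taken by complex, here under knockdown without TGF-beta, where 15.0% of all genes tested were called lower. Of 8 condensin subunits, which compact chromosomes, 6 fell, among them SMC2 (-0.55, adjusted p = 0.0165) and NCAPG2 (-0.65, adjusted p = 0.0185). Of 12 cohesin subunits and regulators 6 fell, with CDCA5, which protects cohesion, at -1.07 (adjusted p = 0.00964) and STAG1, a cohesin subunit, at -0.83 (adjusted p = 0.0153). Among 30 further kinetochore genes tested, 13 fell, such as OIP5 of the centromere at -0.80 (adjusted p = 0.00923), and 1 rose. That one was ZW10, a subunit of the complex that brings dynein to kinetochores, at 0.74 (SE 0.11, adjusted p = 0.00432) without and 0.85 with TGF-beta. Of 20 further kinesins and microtubule proteins 10 fell. STMN1, stathmin, a microtubule destabiliser, changed by -2.11 (SE 0.35, adjusted p = 0.00614), a larger difference than that of any member, and CKAP2L by -1.04 (adjusted p = 0.0175).

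The remaining lists hold upstream and checkpoint machinery. Of 16 anaphase-promoting complex subunits and regulators 4 fell, with a median of -0.13. They included the subunit ANAPC10 (-0.81, adjusted p = 0.00642) and FBXO5, an inhibitor of the complex (-0.77, adjusted p = 0.0269). Of 16 MuvB, MYB, E2F and NF-Y genes 5 fell, with a median of -0.09, close to the -0.07 of all genes tested. LIN52, a MuvB subunit, changed by -0.86 (adjusted p = 0.016) and E2F7, a repressor, by -0.54 (adjusted p = 0.0171). The further MuvB subunits LIN54 (-0.14), LIN9 (-0.06), RBBP4 (-0.05) and LIN37 (0.04) were not called. Nor was MYBL2, which encodes B-MYB (0.00045). Of 6 G2 checkpoint kinases 3 fell, with CHEK1 at -0.54 (adjusted p = 0.00851) and CHEK2 at -0.34 (adjusted p = 0.0386). With TGF-beta the lower calls in these 7 lists, in the order given, numbered 5, 6, 14, 13, 7, 5 and 2, where 21.8% of all genes tested were called lower, and STAG2, a cohesin subunit, joined ZW10 as higher (0.32). Under TGF-beta in siSFPQ cells 2 genes of these lists were called, against 2.26% of all genes higher and 2.90% lower: FZR1, an activator of the anaphase-promoting complex, at 0.44 and E2F5 at -0.52.

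What the members share beyond function was looked at in level and gene structure, here for knockdown without TGF-beta. The members' median of the mean log2(FPKM + 1) was 4.85, against 3.55 for all genes tested, of which 77.0% lay below 4.85. The shares of genes called were not matched for level. The members' median GC content over the longest annotated transcript was 43.2%, against 48.4% for all genes tested. Their median transcript length of 3358 bases was close to the 3615 bases of all genes tested. Spearman rho between GC content and change was 0.20 over the members and 0.14 over all genes, as a description. The 4037 genes tested within the members' middle range of GC content, 39.9% to 48.5%, had a median change of -0.10, and the 22 members in it -0.73. Exons of many members overlap another gene, such as FOXM1 with ITFG2 on the other strand over 781 bases. Whether the counting used strand is not given in the sources used here, so reads of such pairs cannot be told apart. The longest overlaps lie on the same strand, where strand would not part the reads either. They are PRC1 with AC068831.7 over 3181 bases and NUSAP1 with AC087721.2 over 1787 bases, and neither partner has a row here.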

How the data were processed

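The authors deposited 1 table of FPKM values for the 24 libraries. Reads were aligned with TopHat2 2.1.1 and quantified with Cufflinks 2.2.1 on hg19, per the submitters' processing notes; libraries came from a poly(A) kit, per the labels' protocols. The table's name speaks of raw counts, but its values are not whole numbers and it was treated as FPKM. From 23284 rows 1627 of short RNAs were removed, 1 of which held 33.6% to 51.6% of each library's sum; 2 empty columns were not used, and 1265 values below 1e-06 were set to 0. Differences of log2(FPKM + 1) were fitted with limma 3.58.1 in R 4.3.3 (trended and robust shrinkage), with the cell line as a block and Benjamini-Hochberg adjustment over all genes at 1 FPKM or more in at least 6 of the libraries compared. The interaction compared the 2 TGF-beta responses within lines. Since each line gave 1 library to each group, the line pairs the libraries: deviations from the group means correlated by 0.874 to 0.978 within a line (36 pairs) and by -0.51 to 0.41 between libraries of different lines and groups (180 pairs). The steps were tested on simulated data. Alternatives were another pseudocount, no filter, no block, scaling, GC correction, short RNA rows kept, plain shrinkage, 1 fit over all libraries and lines left out. The members and gene lists were chosen with earlier results of these data known. Named per role were the members with the smallest and the largest p without TGF-beta. Also named were those with the smallest p in the TGF-beta comparisons and the interaction, and 2 genes per further list. MYBL2 and the other MuvB subunits were named beside LIN52.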

Additional observations from a re-analysis of the deposited data

Results flagged for a closer look

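Over 36 sets of 6 line values, 2 held a value far from the nearest other by the usual gap test, about as many as chance gives at 1 in 20. BIRC5 in HLE changed by -2.35 under knockdown with TGF-beta (12.7 FPKM in siSFPQ cells with TGF-beta, 68.7 FPKM in siCTL cells with TGF-beta), while the other 5 lines ran from -0.87 to -0.39. The median over the 44 members in Huh1 changed by -0.62 under TGF-beta in siSFPQ cells, while the other lines ran from -0.16 to 0.03.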

How the results depend on the processing

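The direction of the members' fall held under each of the 16 alternative settings, which left 43 of 44 members below 0 without TGF-beta and 43 or 44 with it, with medians of -0.90 to -0.44 and of -0.96 to -0.47. Of all genes tested, 59.4% without and 62.4% with TGF-beta were below 0 in the main fits. The number of calls did not hold. Without TGF-beta 37 members were called lower (15.0% of all genes tested), but 6 with no filter on low values (3.96% of 19834 genes). The count was 4 without Huh7 and HepG2 (6.26%), whose siSFPQ libraries without TGF-beta were shallow, at an estimated 0.599 and 0.418 times the median depth. It was 6 without HLE and SK-HEP1 (5.69%), a choice made after seeing the data. Leaving out 1 line at a time gave 8 (without SK-HEP1, 8.42%) to 43 (without Hep3b, 12.1%). Without Huh7 it was 12 (9.75%) and without HLE 20 (8.61%). With TGF-beta the 38 calls (21.8% of all genes tested) became 18 with no filter (8.85%) and 12 without Huh7 and HepG2 (11.1%). The HepG2 siSFPQ library with TGF-beta was not shallow, at an estimated 1.15 times the median depth, while that of Huh1 stood at 0.58. Calls numbered 21 without HLE and SK-HEP1 (13.7%). Over single lines they ran from 16 (without SK-HEP1, 14.8%) to 43 (without Hep3b, 18.7%), with 25 without Huh7 (17.7%). With no replicate block 0 members were called in either comparison by limma, with 8 and 6 at an unadjusted p under 0.05. The number of all genes at that p is not given. In that setting 0 of all 12011 and 0 of all 12021 genes tested were called, so the count says nothing particular to the members. CDC25B with TGF-beta (-0.08) turned to 0.029 when libraries were scaled to a common median ratio and to 0.10 without HLE and SK-HEP1, and ran from -0.19 (without Hep3b) to 0.092 (without HLE) over single lines. Causes were not tested. Scaling took the median of all genes (-0.07 and -0.09) to near 0 and left 31 and 34 members called. It changed the split of all calls to 1171 higher and 1370 lower without TGF-beta (804 and 1804 as reported), and to 1581 and 1715 with it (1018 and 2621); GC correction gave 1391 and 1260, and 1836 and 1516, with 28 and 32 members called. Under TGF-beta and in the interaction the count of members called stayed at 0 in every setting, while counts over all genes moved: in siSFPQ cells 268 higher and 345 lower became 303 and 109 with scaling, 298 and 165 with GC correction, 13 and 2 with no filter and 1 and 0 without HLE and SK-HEP1, and the interaction's 30 and 4 became 0 and 0 in 1 fit over all libraries. Without Huh1 the members' medians under TGF-beta were -0.05 in siSFPQ cells (-0.16 as reported) and -0.01 in siCTL cells (-0.10). The values carry no counts, so no counting interval can be given, and depth limits the low members most, such as CENPE in the libraries of 0.352 and 0.418 times the median depth.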
